A study of Caenorhabditis elegans with 12 samples.

Results

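The actomyosin and cytokinesis genes of the Caenorhabditis elegans gonad described here are ani-1, ani-2, nmy-2, cyk-1, cyk-4, zen-4, ect-2, let-502 and mel-11. They were chosen by name, and all 9 were found among the 40961 gene names of the deposited tables. All 9 also passed the filter on low values that left 7570 genes for testing (at least 1 RPKM in at least 4 libraries). By name in the Ensembl annotation, nmy-2 and let-502 lie on chromosome I, ani-2, ect-2 and mel-11 on II, ani-1, cyk-1 and cyk-4 on III, and zen-4 on IV. RNA sequencing measured transcripts in gonads dissected from adult worms of the F3 generation. The labels tell the groups apart by what their P0 ancestors met for 48 h. In the BPA group these ancestors were exposed to 100 µM bisphenol A, a monomer used to make plastics. In the DMSO group they were exposed to 0.1% dimethyl sulfoxide, a common solvent, and in the water group to water. Each group has 4 libraries, named here by group and sample number. All worms were kept at 20 °C on plates of the bacterium OP50. The strain, the number of gonads in a library and whether BPA was given in DMSO are not stated in the sources used here. Nothing says that the samples of a group came from separate cultures. The p-values therefore reflect the spread among these samples alone, which may be technical.

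Germ cells of the adult C. elegans gonad keep a passage to a shared core of cytoplasm, the rachis, through openings lined with contractile rings of actin and non-muscle myosin. The same machinery closes the ring that cuts a dividing cell apart: the exchange factor ECT-2 and the centralspindlin complex of CYK-4 and ZEN-4 act upstream, and a formin, a kinase and myosin build and tighten the ring. Anillins tie these parts together, and in this gonad the short anillin ANI-2 is known for keeping the openings to the rachis stable as oocytes grow.

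Against the label of gonad tissue, all 18 listed germline markers were above the filter. Their summed level was 5650 to 6629 RPKM (reads scaled to the length of the transcript and the size of the library) in BPA, 5318 to 6295 in DMSO and 3240 to 7467 in water. The lowest sum was that of water 1 and the highest that of water 2. Markers of other tissue were present too. Their sums take in every listed gene found by name, also those that failed the filter. Summed muscle markers (10 of 14 tested) ranged over 53.4 to 373 RPKM in BPA, 40.1 to 214 in DMSO and 52.8 to 450.1 in water, highest in BPA 3, DMSO 3 and water 3. Intestine markers (7 of 12 tested, with 1 listed at 0 in all libraries) summed to 22.7 to 138 RPKM in BPA, 23.5 to 1135 in DMSO and 38.2 to 332 in water, highest in the same samples 3. Sperm markers (16 of 18 found and 3 tested) summed to 19.4 to 26.8 RPKM in BPA, 23.6 to 36.2 in DMSO and 22.6 to 353 in water. The highest sum was again in water 3, where msp-19, which failed the filter, had 230 RPKM. In the other libraries msp-19 had at most 0.055 RPKM. Sheath and spermatheca markers summed to 114 to 257 RPKM over the 12 libraries. Water 1 stood apart: over all tested genes its median correlation with the other libraries was 0.88, against 0.92 to 0.94 for the other 11. It holds the lowest value of the 12 libraries for 20.9% of tested genes and the highest for 32.7%. Differences from water are therefore given with and without it. In bulk samples fewer cells of a type and less RNA per cell cannot be told apart.

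The most abundant of the 9 genes was ani-2, with a mean of 434 RPKM over the 12 libraries and more than 98.3% of tested genes below it. Next came nmy-2 at 186 RPKM, cyk-4 at 142 and ani-1 at 117, which stood above 95.3%, 93.2% and 91.6% of tested genes. In the middle were ect-2 at 69.5 RPKM, zen-4 at 65.9, let-502 at 53.7 and mel-11 at 43.8. At the low end was cyk-1 at 24.4 RPKM, close to the middle of all tested genes (58.4% lay below it). RPKM is scaled to length, so these levels can be set beside each other, but only roughly. A trend with transcript length remained in some libraries, as given below. Not every neighbour in this order is separate from the next. Over the 11 libraries other than water 1, the ranges of ani-2 and nmy-2, of ani-1 and ect-2, and of mel-11 and cyk-1 did not overlap, and the other neighbours overlapped. The order of ect-2 and zen-4 was turned round in water 3 and water 4, and that of zen-4 and let-502 in water 1. At the top of the order, ani-2 lay below nmy-2 in water 1, and cyk-4 lay below ani-1 in DMSO 2.

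**Figure D1:**
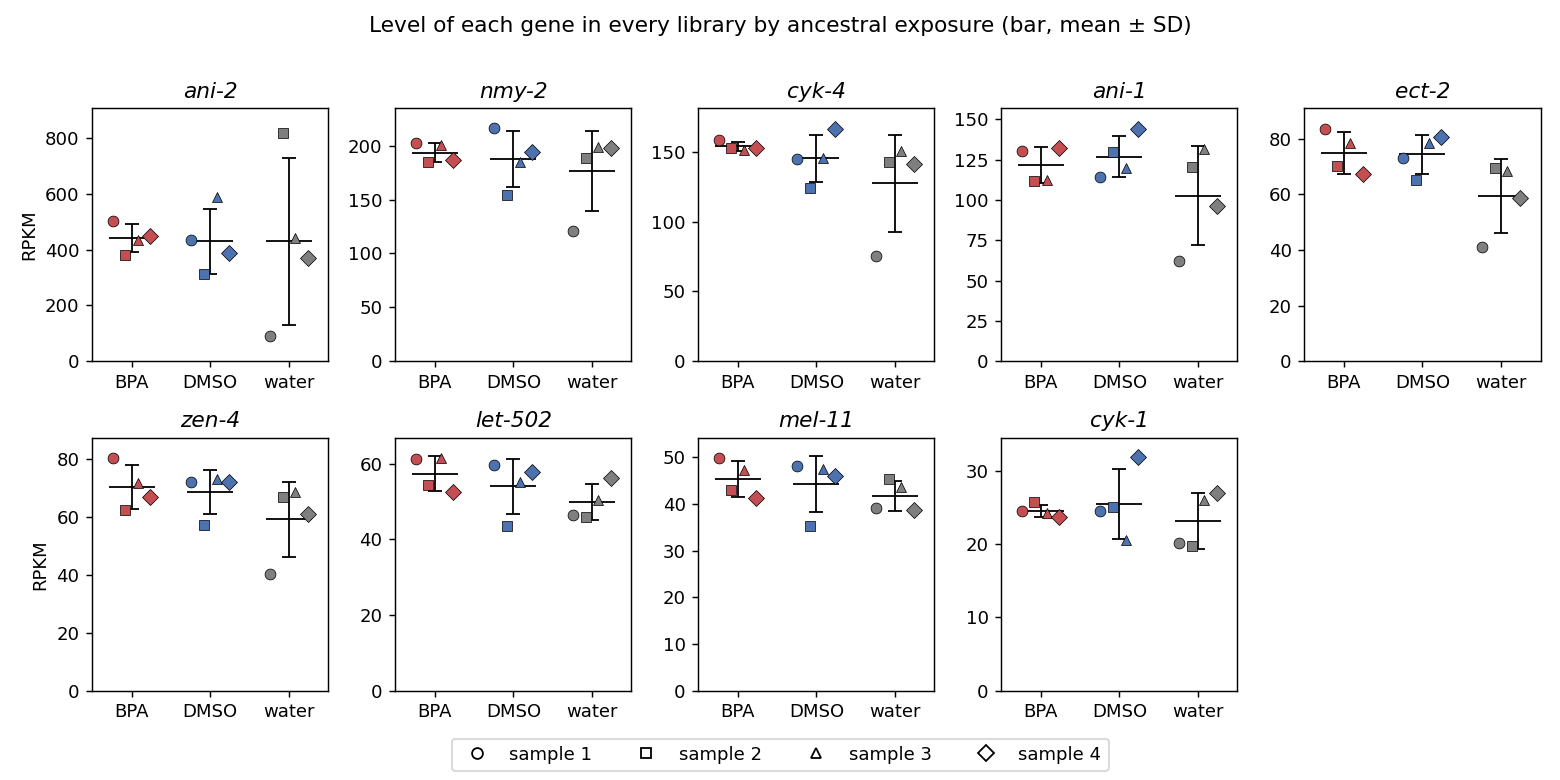
Level of each of the 9 genes in RPKM (vertical axis, from 0) in the 4 libraries of BPA, DMSO and water; marker shapes give the sample number, and bars the mean ± SD of 4 libraries. The groups overlap in every panel except cyk-4, where BPA lies above water, and the mean is lowest in water for all 9 genes. Water 1 (circle) lies lowest for 6 genes, with 89 RPKM for ani-2.

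Among the scaffolds, ani-2 encodes the short anillin of the rachis openings, which lacks the part that binds actin and myosin. It stood at 502, 381, 434 and 449.7 RPKM in BPA 1 to 4, at 434, 311, 588 and 389 in DMSO 1 to 4, and at 89, 820.3, 441 and 369.8 in water 1 to 4. The means were 442 ± 50.1 RPKM in BPA, 431 ± 117 in DMSO and 430.1 ± 301 in water (SD, n = 4 each). Both the lowest and the highest value of the 12 were thus in water, and the BPA and DMSO libraries lay between them. The full-length anillin gene ani-1, whose product links actin and myosin at the cleavage furrow, was more even. Its values were 131, 112, 112 and 132 RPKM in BPA, 114, 129.7, 120.0 and 144 in DMSO, and 62.3, 121, 132 and 96.2 in water. The groups overlapped, and the mean of 122 ± 11.2 RPKM in BPA lay between 127 ± 13.0 in DMSO and 103 ± 30.8 in water.

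The motor of the ring is non-muscle myosin II, whose heavy chain is encoded by nmy-2. It measured 202, 185, 201 and 187 RPKM in BPA, 217, 154, 185 and 194 in DMSO, and 121, 189, 199 and 198 in water. Apart from water 1 and DMSO 2, its libraries kept within 185 to 217 RPKM. The formin gene cyk-1, whose product elongates unbranched actin filaments, measured 24.6, 25.7, 24.3 and 23.7 RPKM in BPA, 24.5, 25, 20.6 and 32.0 in DMSO, and 20.2, 19.7, 26 and 26.9 in water. The BPA libraries were closest together and lay inside the ranges of DMSO and of water.

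Upstream of the ring, the exchange factor gene ect-2 measured 83.6, 70.1, 78.5 and 67.4 RPKM in BPA, 73.2, 65.1, 78.5 and 80.5 in DMSO, and 40.9, 69.5, 68.2 and 58.8 in water. Water 2 and water 3 reached into the lower ends of the BPA and DMSO ranges, and water 1 and water 4 lay below both. For ect-2 the means were 74.9 ± 7.51 RPKM in BPA, 74.3 ± 6.92 in DMSO and 59.4 ± 13.2 in water (SD, n = 4 each).

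The centralspindlin pair comprises cyk-4, which encodes a GTPase-activating protein, and zen-4, which encodes a kinesin. For cyk-4 the values were 159, 153, 152 and 153 RPKM in BPA, 145, 125, 146 and 167 in DMSO, and 75.4, 143, 151 and 142 in water. Every BPA library lay above every water library, although BPA 3 (152 RPKM) and water 3 (151 RPKM) were almost level. For zen-4 they were 80.2, 62.4, 71.5 and 66.8 RPKM in BPA, 71.8, 57.1, 72.9 and 72.1 in DMSO, and 40.3, 66.6, 68.5 and 60.9 in water. The groups of zen-4 overlapped, and DMSO 2 fell well below the other DMSO libraries.

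Myosin activity is set by a kinase and a phosphatase. The kinase LET-502 promotes phosphorylation of the myosin light chain, and its gene measured 61.2, 54.2, 61.5 and 52.4 RPKM in BPA, 59.7, 43.5, 55.0 and 57.7 in DMSO, and 46.4, 46.0, 50.5 and 56.2 in water. MEL-11, the targeting subunit of the phosphatase that opposes it, had a gene level of 49.8, 43.0, 47.3 and 41.3 RPKM in BPA, 48.2, 35.3, 47.6 and 46.1 in DMSO, and 39.2, 45.4, 43.6 and 38.8 in water. Both genes had their lowest DMSO value in DMSO 2. In the gene sums water 1 was near the others: its level was 0.84 times the median of the other 11 libraries for let-502 and 0.86 times for mel-11. For mel-11 this sum hides a shift between transcript models, given below.

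The first comparison set descendants of BPA-exposed worms against those of DMSO-exposed worms. None of the 9 genes passed the test in this comparison (limma on log2(RPKM + 1), Benjamini-Hochberg adjusted p under 0.05 over 7570 genes), where 0.0264% of tested genes did. At an unadjusted p under 0.05 the count was also 0 of 9, against 0.872% of tested genes. No member had groups that did not overlap, against 1.08% of tested genes (0.634% with BPA higher and 0.449% with BPA lower). The log2 differences ran from -0.06 for ani-1 to 0.09 for let-502 (SE 0.12), with a median of 0.04, beside 0.02 over all tested genes. Of the 9 differences 7 were above 0, against 55.5% of all tested genes. Without DMSO 2 only 1 was above 0 and the median was -0.05, and without BPA 1 there were 4. These are not tests of equality, and the intervals show what sizes were left in range. For let-502 the fold of BPA over DMSO was 1.07 (95% interval 0.882 to 1.29, on the RPKM + 1 scale), and for nmy-2 1.04 (0.809 to 1.34). For ani-2 it was 1.05 with a wide interval of 0.480 to 2.29. The median member had an interval of ± 0.36 on the log2 scale, narrower than the ± 0.58 of the median tested gene. These widths were not matched on level. All 9 members averaged 24.4 RPKM or more, whereas the median over tested genes was 12.2 (water 2) to 17.1 RPKM (water 1).

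The second comparison set BPA against water. Again 0 of 9 genes passed (limma, smallest adjusted p = 0.987), against 0.0132% of tested genes, and 0 of 9 had an unadjusted p under 0.05, against 2.71%. The groups of cyk-4 did not overlap, with BPA higher, as in 1.52% of tested genes (2.02% in either direction). Its log2 difference was 0.32 (SE 0.20), and 0.09 without water 1. For ect-2 the log2 difference was 0.35 (SE 0.16, limma adjusted p = 0.987), and 0.19 without water 1. For ani-2 the difference was 0.41 (SE 0.51) and -0.22 (SE 0.27) without water 1. The median of the 9 differences was 0.27, with all 9 above 0, beside -0.01 and 48.2% above 0 over all tested genes. Without water 1 it was 0.09, with 7 above 0, beside 0.05 and 59.2% over all tested genes. In water 1 the summed level of the 9 genes was 535 RPKM, against 1047 to 1519.8 in the other water libraries. The summed germline markers were at 3240 RPKM in water 1, but the markers did not all go 1 way. Of the 18, 10 had their lowest value of the 12 libraries there (20.9% of tested genes) and 4 their highest (32.7%). The part of the germline markers' level in the differences was not tested.

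DMSO against water shares the water libraries with the comparison before it. Here too 0 of 9 genes passed (limma, smallest adjusted p = 0.999), against 0.0132% of tested genes, and 0 of 9 had an unadjusted p under 0.05, against 1.7%. No member had groups that did not overlap, against 0.885% of tested genes (0.515% with DMSO higher and 0.37% with DMSO lower). The largest differences were those of ani-1 (0.35, SE 0.20), ect-2 (0.34, SE 0.16) and ani-2 (0.34, SE 0.51). Without water 1 they were 0.13, 0.18 and -0.29. The lowest was that of mel-11 at 0.08 (SE 0.13), and 0.05 without water 1. The median was 0.23, with all 9 above 0, beside -0.02 and 46.2% over all tested genes. Without water 1 it was 0.06, with 6 of 9 above 0, beside 0.02 and 55.4%. The medians of all 3 comparisons kept their sign when the libraries were given the same median, the same sum or the same distribution.

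**Figure D2:**
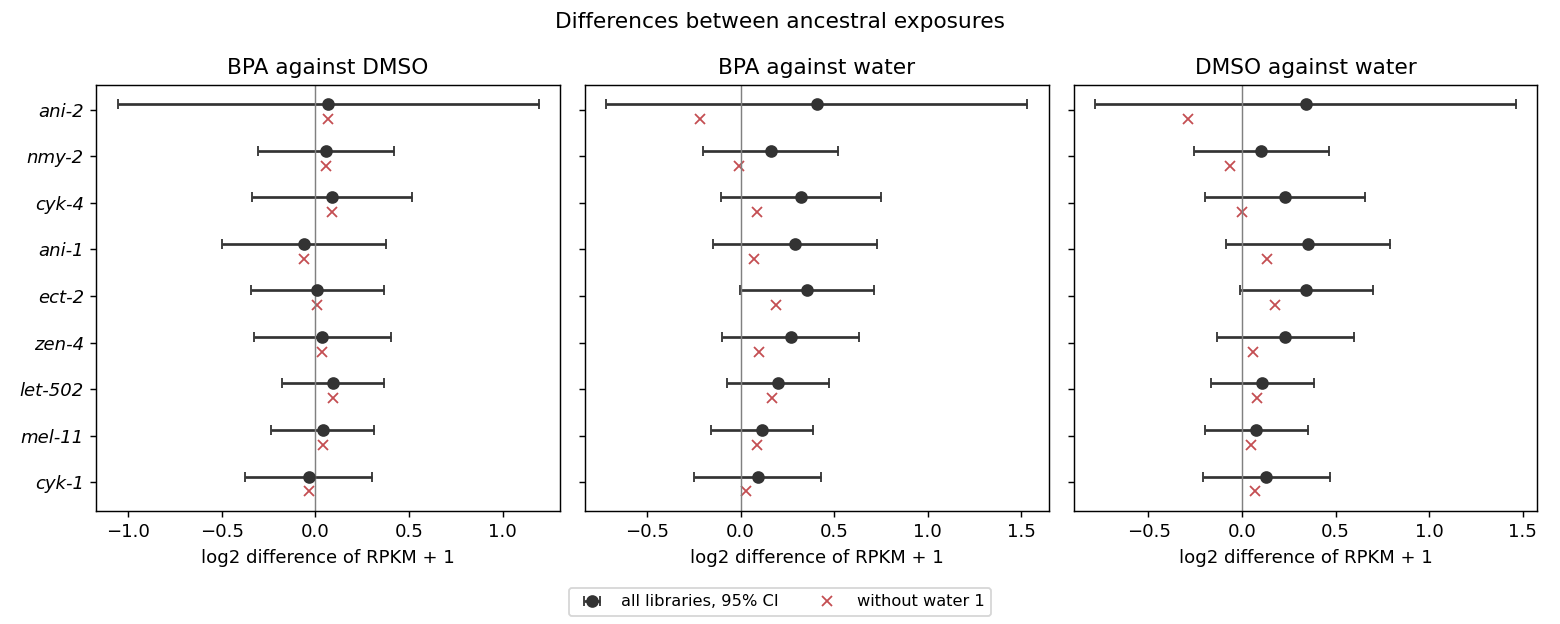
Log2 difference of RPKM + 1 (horizontal axis) for each gene in BPA against DMSO, BPA against water and DMSO against water, with 95% confidence intervals from limma over 12 libraries (circles); crosses give the same difference without water 1. Every interval spans 0, and the cross lies on the other side of 0 from the circle in both comparisons with water for ani-2 (-0.22 and -0.29) and nmy-2 (-0.01 and -0.07), and for cyk-4 in DMSO against water.

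In the median of the 9 genes, spread within a group was narrowest in BPA and widest in water over all 12 libraries. The coefficient of variation (SD over mean) of the 9 genes had a median of 8.61% in BPA, 13.4% in DMSO and 21.8% in water. This order did not hold for every gene, since cyk-1, let-502 and mel-11 varied most in DMSO. The spread of mel-11 was lowest in water (7.80%) and that of ect-2 in DMSO (9.31%). For tested genes averaging 10 RPKM or more, the same medians were 11.7%, 14.9% and 27.3%. Without water 1 the members' median in water was 8.93%, beside 15% for those tested genes. In BPA the steadiest member was cyk-4, at 2.06%, and the most variable was ani-2, at 11.3%. The most variable member of the water group was ani-2, at 70.1%, or 44.5% without water 1.

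Ratios between genes whose products work together were set out within each library. The level of cyk-4 was 1.98, 2.45, 2.12 and 2.30 times that of zen-4 in BPA, 2.02, 2.18, 2.0 and 2.31 times in DMSO, and 1.87, 2.14, 2.20 and 2.32 times in water. So this ratio ran over 1.87 to 2.45, lowest in water 1, where both genes were low. Over the other 11 libraries it ran over 1.98 to 2.45. The level of let-502 over mel-11 averaged 1.27 ± 0.03 in BPA, 1.22 ± 0.04 in DMSO and 1.20 ± 0.18 in water (SD, n = 4 each). Its extremes were both in water, at 1.01 in water 2 and 1.45 in water 4. By contrast, ani-2 over ani-1 was 3.40 to 3.86 in BPA, 2.40 to 4.90 in DMSO and 1.43 to 6.79 in water. The lowest of these was in water 1 and the highest in water 2. Over the 12 libraries the highest ratio was 1.31 times the lowest for cyk-4 over zen-4 and for ect-2 over cyk-4, 1.43 times for let-502 over mel-11, 1.57 times for nmy-2 over let-502, 1.59 times for nmy-2 over cyk-1 and 4.76 times for ani-2 over ani-1. These ratios were chosen with the values known and are given as a description without a test.

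**Figure D3:**
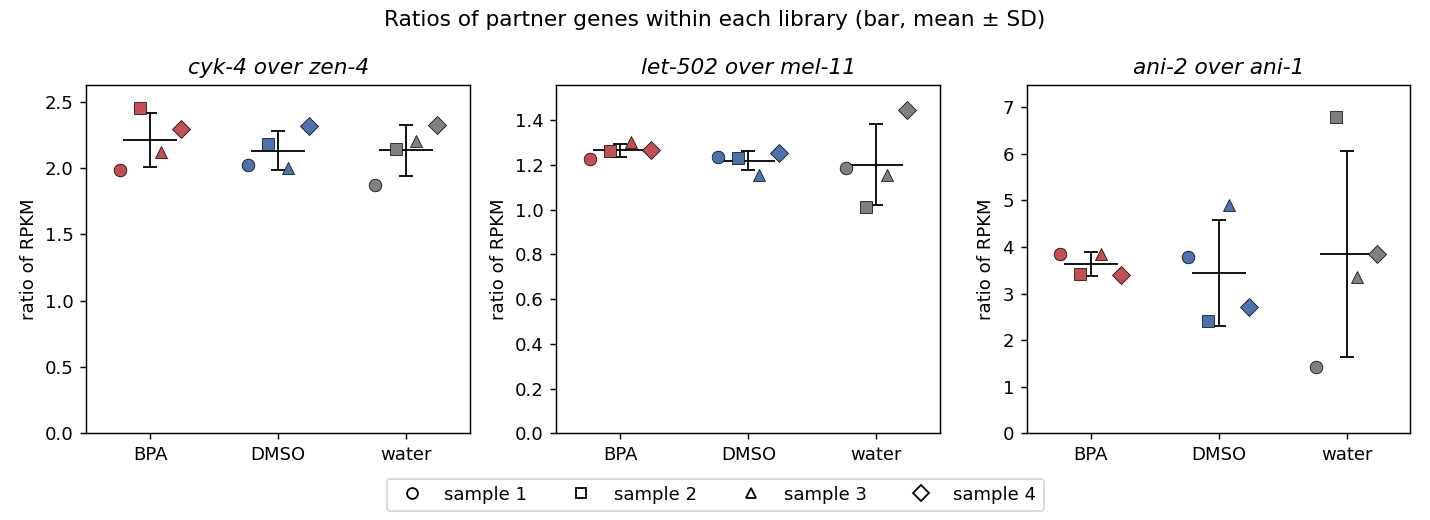
Ratio of RPKM within each library (vertical axis, from 0) for cyk-4 over zen-4, let-502 over mel-11 and ani-2 over ani-1, by group, with marker shapes for the sample number and bars for mean ± SD of 4 libraries. The first pair runs over 1.87 (water 1) to 2.45 (BPA 2), and ani-2 over ani-1 over 1.43 (water 1) to 6.79 (water 2).

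Water 1 was the lowest library for 6 of the 9 genes, ani-1, ani-2, nmy-2, cyk-4, zen-4 and ect-2. Relative to the median of the other 11 libraries, water 1 was at 0.21 for ani-2, 0.50 for cyk-4, 0.52 for ani-1, 0.58 for ect-2, 0.59 for zen-4 and 0.62 for nmy-2. It was the highest library for 0 of the 9. A trend with transcript length moved with this over all genes. Among 4142 genes averaging 10 RPKM or more and with a known length, the median log2 ratio of water 1 to the other libraries was 0.67 for the 890 genes with transcripts up to 1000 bases. It was -0.23 for the 800 genes of 2000 to 3000 bases, -0.51 for 3000 to 4000 bases, -0.40 for 4000 to 6000 bases and -0.72 for the 69 genes over 6000 bases. The longest annotated transcript of cyk-4 has 2200 bases, the shortest of the 9, and that of nmy-2 has 6494, the longest. For nmy-2 the log2 ratio in water 1 was -0.68, close to that of genes of its length, whereas ani-2 (3555 bases) was at -2.29, beside a median of -0.51 for genes of 3000 to 4000 bases. Of the 9 genes, 5 lay below the median of genes of their length, among them cyk-4 (-1.0, beside -0.23) and ani-1 (-0.95, beside -0.51). The other 4 lay above it, among them mel-11 (-0.21, beside -0.51). DMSO 2 showed the same trend at a smaller size, with 0.22 for the shortest and -0.33 for the longest genes, and it held the lowest value of the 12 libraries for 2 of the 9 genes, against 7.99% of tested genes. The part of transcript length in the members' levels was not tested.

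**Figure D4:**
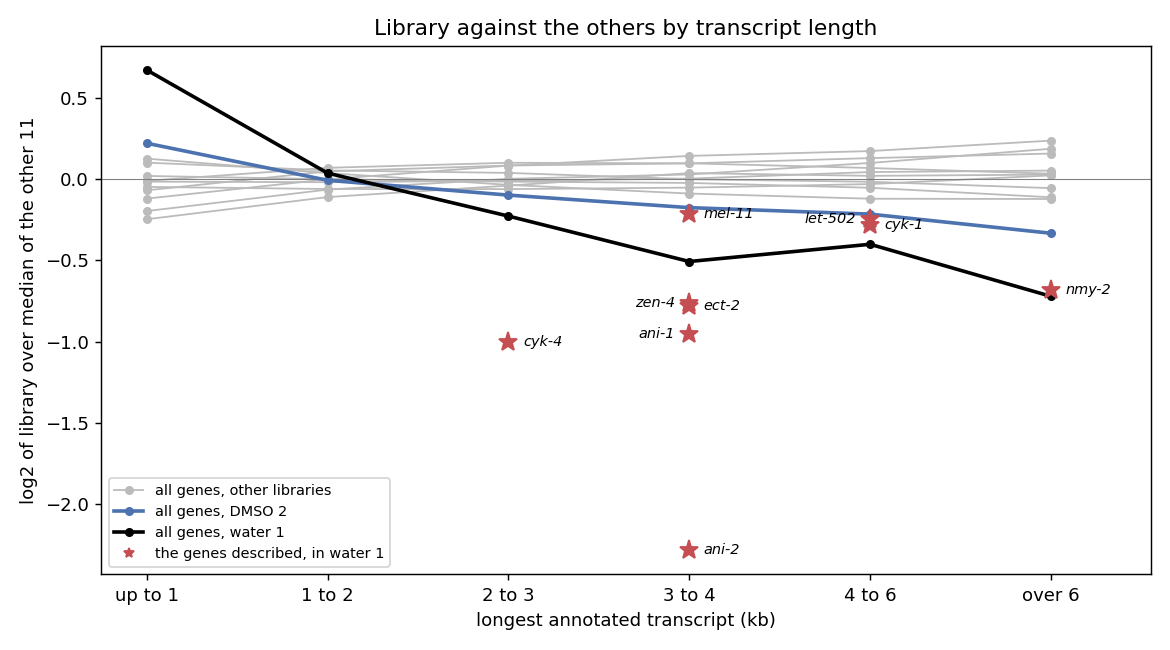
Median log2 ratio of each library to the median of the other 11 (vertical axis) for genes grouped by the length of the longest annotated transcript in kb (horizontal axis), with water 1 in black, DMSO 2 in blue and the other libraries in grey; stars are the 9 genes in water 1. The black line is at 0.67 for the shortest and -0.72 for the longest genes, with a small rise at 4 to 6 kb (-0.40), and ani-2, at -2.29, lies farthest below it.

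The values were also set out by sample number, since a split of samples 1 and 3 from samples 2 and 4 had been noticed in these data. Over all 12 libraries, 0 of the 9 genes had every sample 1 and 3 on one side of every sample 2 and 4, against 7.4% of tested genes. Within BPA, nmy-2, zen-4, ect-2, let-502 and mel-11 were higher in samples 1 and 3 than in both of samples 2 and 4, as were 34.9% of tested genes. Of these, ect-2 averaged 81.1 RPKM in BPA 1 and 3 and 68.7 RPKM in BPA 2 and 4. Within DMSO, ani-2 and mel-11 were higher in samples 1 and 3 (27.6% of tested genes), and ani-1 and cyk-1 were lower (19.6%). Within water no member was separated in either direction (24.8% and 11.7% of tested genes). The median log2 difference of samples 1 and 3 from 2 and 4 was 0.17 in BPA, 0.17 in DMSO and -0.27 in water, beside 0.08, 0.03 and 0.19 over all tested genes. In water 0 of the 9 were above 0, against 63.3% of tested genes, and water 1 is one of the samples. For water 3 alone against the mean of water 2 and 4 the median was 0.09, with 7 of 9 above 0, beside 0.07 and 58.2% over all tested genes. The muscle marker pat-10 stood at 67.6, 32.3, 256 and 16.7 RPKM in BPA 1 to 4, at 115.4, 12.4, 156 and 29.5 in DMSO 1 to 4 and at 145, 35.2, 325 and 24.3 in water 1 to 4, so in each group its samples 1 and 3 were higher. The muscle marker mlc-3 was higher in samples 1 and 3 of DMSO and of BPA, narrowly in BPA 1 (21.9 RPKM, against 21.1 in BPA 4). In water mlc-3 was not split, with 21.6 RPKM in water 1 and 23.9 in water 2. The other muscle markers are not given by library here. The part of such tissue in the members' values was not tested.

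The deposited tables split a gene into transcript models, and for some members the split changed between libraries more than the sum did. The sum of nmy-2 was carried almost wholly by 1 of its 3 models in 11 libraries, but not by the same one. The third model carried it in BPA 1, BPA 3, DMSO 2 to 4, water 1 and water 2, the second in BPA 2, water 3 and water 4, and the first in DMSO 1. BPA 4 was divided, with 105 RPKM in the first model and 82.4 RPKM in the third. The annotation used here has 1 transcript for this gene. For let-502 the first of 2 models led in BPA 1, DMSO 2, DMSO 4 and water 1 to 3, and the second led in the other libraries. The first model had 42.4 RPKM and the second 18.8 RPKM in BPA 1, while in BPA 3 they had 0 and 61.5 RPKM, and in water 2 46.0 and 0 RPKM. Every group holds libraries of either kind.

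For ani-1 the fifth of 5 models led in 9 libraries and the fourth in DMSO 2, DMSO 4 and water 3. The second model of ect-2 had 7.58 and 10.4 RPKM in BPA 1 and 3, 7.50 and 7.31 in DMSO 1 and 3, and 6.55, 8.54 and 6.21 in water 2, 3 and 4. It was listed at 0 in the other 5 libraries, in which the first model of ect-2 stood at 11.9 to 16.3 RPKM. In the 7 libraries that listed the second model, the first stood at 6.34 to 10.4 RPKM. A value of 0 for a model can be a failed estimate, so these are read as changes in the split and not as isoform use. The main model of cyk-1 and that of ani-2 led in all 12 libraries, with at least 55.5% and 83.4% of the gene's value. In DMSO 3 the other model of ani-2 had 97.7 RPKM, and in the other libraries it had at most 0.230 RPKM. The genes cyk-4 and zen-4 have 1 model each. For mel-11 the first of 5 models led in 11 libraries, at 29.8 to 45.1 RPKM, but stood at 18.4 RPKM in water 1. There the fifth model led with 20.8 RPKM, and in the other libraries it had at most 1.22 RPKM. So the sum of mel-11 in water 1 was near the others while its main model was lower.

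**Figure D5:**
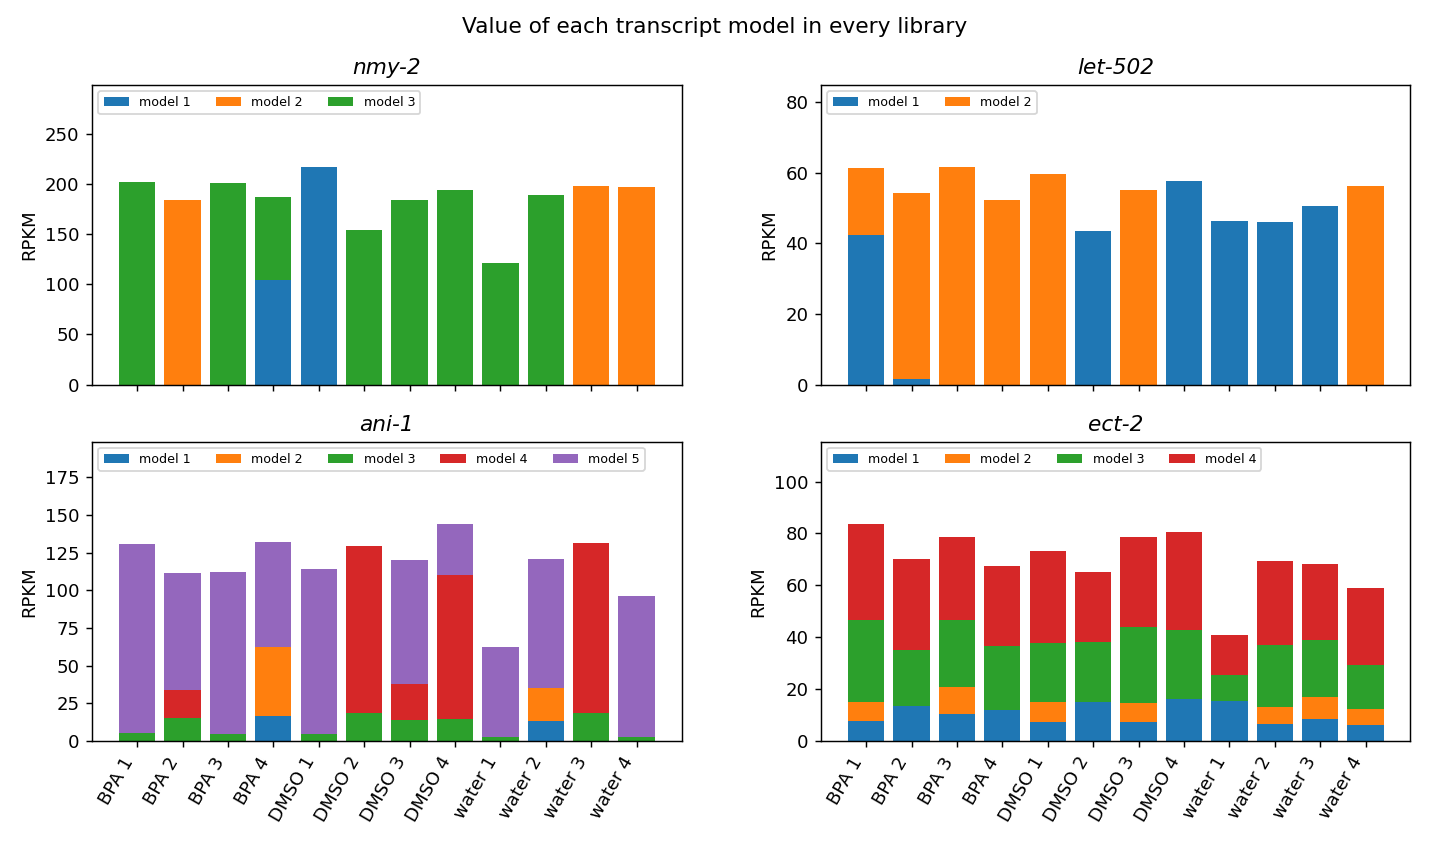
RPKM of each transcript model (stacked bars, from 0) of nmy-2, let-502, ani-1 and ect-2 in the 12 libraries, with 1 colour for each model of a gene. The height of the nmy-2 bars stays near 185 to 217 RPKM in most libraries while the colour changes, and BPA 4 is divided into 105 and 82.4 RPKM.

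Of the 9 genes, 2 share a merged locus with a neighbour in the deposited models, so that reads could be divided between them. The locus of ani-2 also holds the protein-coding gene K10B2.4, on the same strand of chromosome II. K10B2.4 measured 90.4 to 107 RPKM in BPA, 89.2 to 107 in DMSO and 81.0 to 139.6 in water, with its highest value in water 1 and its lowest in water 2, the reverse of ani-2. It made up 61.1% of the locus in water 1 and at most 25% in the other libraries. Summed over the locus, the BPA libraries stood at 477 to 593 RPKM, water 1 at 229 and water 2 at 901 RPKM. For the locus the log2 difference of BPA from water was 0.15, against 0.41 for ani-2 alone, and without water 1 it was -0.21, against -0.22. The locus of let-502 also holds C10H11.8, which was at most 4.11 RPKM and listed at 0 in BPA 2 and water 3.

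Other genes of the pathway were taken from 3 lists. Of 11 myosin and light chain genes 9 were tested and 0 passed in any comparison (limma). At an unadjusted p under 0.05 the count was 1 for BPA against water and 0 for the others. Medians of the list were -0.008, -0.097 and -0.059 for BPA against DMSO, BPA against water and DMSO against water. In each comparison with water 3 of these 9 genes were above 0, whereas all 9 members were. Without water 1 the medians against water were 0.12 for BPA and 0.03 for DMSO, with 6 of 9 above 0 in each. The regulatory light chain gene mlc-4, the partner of NMY-2, averaged 62.4 ± 5.25 RPKM in BPA, 62.7 ± 3.55 in DMSO and 67.7 ± 22.3 in water. Its highest value was in water 1, at 99.9 RPKM. The unconventional myosin gene hum-2 averaged 68.3 ± 6.53 RPKM in BPA, 63.2 ± 7.41 in DMSO and 59.7 ± 7.80 in water. The kinase gene mrck-1, whose product can phosphorylate the same light chain, averaged 54.1 ± 5.65 RPKM in BPA, 51.5 ± 5.15 in DMSO and 43.6 ± 5.04 in water.

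Of 40 actin and actin-binding genes 38 were in the files and 34 were tested. One passed, arx-6, a gene for part of Arp2/3, the complex that starts branched actin filaments. In BPA it was listed at 0.939 RPKM in sample 1 and at 0 in samples 2 to 4. The DMSO libraries had 24.1, 26.5, 14.8 and 20.0 RPKM, and all water libraries were listed at 0. The listed value fell by 4.21 on the log2(RPKM + 1) scale in BPA against DMSO (limma, adjusted p = 1.82e-05), a size that depends on the pseudocount of 1. A value of 0 in these files can be a failed estimate, so this is given as listed and not as a change in the level of the RNA. It was listed higher in DMSO than in water (limma, adjusted p = 9.8e-06). At an unadjusted p under 0.05 the list had 1 gene of 34 in each comparison. The medians of the list were 0.07, 0.05 and -0.01 for BPA against DMSO, BPA against water and DMSO against water, beside 0.02, -0.01 and -0.02 over all tested genes. Without water 1 the medians against water were 0.11 for BPA and 0.02 for DMSO. The actin genes led the list: act-2 averaged 476 ± 49.0 RPKM in BPA, 403 ± 53.0 in DMSO and 404 ± 106 in water, a level like that of ani-2. The near-identical actin genes act-1, act-2 and act-3 can exchange reads, so their separate values are uncertain.

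Of 14 septin, midzone and abscission genes 13 were tested, and 0 passed or had an unadjusted p under 0.05 in any comparison (limma). Their medians were 0.04 for BPA against DMSO, 0.03 for BPA against water and -0.02 for DMSO against water. Without water 1 those against water were 0.09 for BPA and 0.03 for DMSO. The mitotic kinase gene plk-1 averaged 179 ± 6.17 RPKM in BPA, 163 ± 14.4 in DMSO and 137 ± 53.1 in water, and was at 59.4 RPKM in water 1. Of the chromosomal passenger genes, icp-1 averaged 93.7 ± 6.85 RPKM in BPA, 114.9 ± 30.6 in DMSO and 94.1 ± 22.3 in water. The kinase gene of that complex, air-2, averaged 67.1 ± 6.15 RPKM in BPA, 63.8 ± 10.3 in DMSO and 75.6 ± 23.5 in water. In water 1 icp-1 had its lowest value, 63.4 RPKM, and air-2 its highest, 109 RPKM.

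For each member the tested gene with the most similar profile was found by Pearson's r on the log2 scale. These values are a description over 12 libraries that share their groups and water 1. For ani-2 it was ekl-6, with an r of 0.997 over 12 libraries and 0.987 over the 11 without water 1. Like ani-2, ekl-6 was lowest in water 1 (42.4 RPKM) and highest in water 2 (334 RPKM). For cyk-4 it was the phospholipase D gene pld-1 (0.99, and 0.95 without water 1), for zen-4 gck-2 (0.99 and 0.96), and for ect-2 unc-16 (0.98 and 0.93). For ani-1 and nmy-2 the likeness to nhr-23 and C06A1.12 leaned on water 1, with r of 0.96 and 0.94 over 12 libraries and 0.80 and 0.75 over 11. The r changed little for mel-11 with spr-4 (0.93 and 0.94), let-502 with gly-7 (0.90 and 0.89) and cyk-1 with Y53G8AL.2 (0.89 and 0.89). Over the 11 libraries, however, the highest r was with daf-16 for mel-11 (0.96), C06A1.12 for let-502 (0.92) and T19H12.2 for cyk-1 (0.91). The gene also changed for ect-2 (rpn-1, 0.93), ani-1 (F07A11.1, 0.89) and nmy-2 (pcf-11, 0.86). Each gene was picked as the highest among the tested genes, and the 11 libraries are among the 12. The r over 11 is therefore no separate support. Among the members themselves zen-4 and ect-2 were most alike over 12 libraries, with an r of 0.96 (0.86 without water 1). Without water 1 the most alike were zen-4 and mel-11, with an r of 0.93 (0.73 over 12 libraries).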

How the data were processed

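RNA from the dissected gonads was turned into cDNA with a kit for very small inputs and read from 1 end over 50 bp, per the labels' protocols. The authors deposited 1 table of 49201 transcripts for each of the 12 libraries, with RPKM in 11 tables and FPKM in that of BPA 1, per the file headers. For single-end reads both are the same quantity. HISAT, StringTie and the build ce10 are named, per the submitters' processing notes, but the sources used here give neither versions nor annotation. A strand-specific step is not mentioned. The files hold no counts. The lowest values were checked for whole reads, and only 30.5% to 34.6% came within 0.1 of a whole number, so depth is treated as unknown, no count test was run and no counting interval is given.

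Values of transcripts with 1 gene name were summed (40961 genes, with 279 unnamed transcripts left out). The 7570 genes reaching 1 RPKM in 4 libraries or more were compared on the log2(RPKM + 1) scale. The tool was limma 3.58.1 (R 4.3.3), fitted once to the 12 libraries with an intensity trend, two-sided tests and Benjamini-Hochberg adjustment over all of them. This scale understates changes of low genes. The procedure was tested on simulated data. Sums and figures were made in Python 3.11.15. Transcript lengths and chromosomes came by name from Ensembl release 115, whose build differs, so no coordinates are given, and 97.2% of genes averaging 10 RPKM or more had a length. The members and lists were chosen with earlier results of these data known. One gene of the set and 1 pathway list are not reported here. The text names the 9 members described, their models and locus neighbours, and called genes and the 3 most abundant of each pathway list. It also names the most similar gene of each member with and without water 1, and marker genes from lists. Alternatives were pseudocounts of 0.1 and 5, other filters and scalings, locus sums, array weights, only the compared groups, terms for sample number, odd or even numbers alone, and each library left out.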

Additional observations from a re-analysis of the deposited data

Results flagged for a closer look

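Of 27 sets of 4 libraries (9 genes in 3 groups), 4 had a library whose gap to its nearest neighbour was more than 0.83 of the range of the set. The rule marks about 1 in 20 sets of unrelated values by chance, but these sets share libraries, and among all tested genes it marked 9.58% of sets. In water, 2 of these were water 1, which was marked for 8.60% of tested genes: it was lowest for nmy-2 (gap 0.874 of the range, 121 RPKM against 189 to 199 RPKM in the other water libraries) and for cyk-4 (0.876, 75.4 against 142 to 151 RPKM). In DMSO, DMSO 2 (marked for 2.13% of tested genes) was lowest for zen-4 (0.934, 57.1 against 71.8 to 72.9 RPKM) and for mel-11 (0.834, 35.3 against 46.1 to 48.2 RPKM). For ani-2, with water libraries at 89 to 820.3 RPKM, both ends were far from the middle and neither was marked. Water 1 and DMSO 2 are also the libraries whose level changed most with transcript length over all genes, with -1.40 and -0.55 on the log2 scale for the longest genes minus the shortest, against -0.25 to 0.38 in the other 10 libraries. The part of this in the 4 values was not tested.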

How the results depend on the processing

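In each comparison 0 of the 9 genes passed under all 27 alternatives (limma), 1 of which, leaving out water 1 and water 2 together, was chosen after seeing the data. The smallest adjusted p of a member was 1 for BPA against DMSO, 0.652 for BPA against water (without water 2) and 0.711 for DMSO against water (samples 1 and 3 alone). The median log2 difference of the members ranged over -0.05 to 0.08 for BPA against DMSO, 0.09 to 0.35 for BPA against water and 0.06 to 0.31 for DMSO against water when each library was left out in turn. With samples 1 and 3 alone it was 0.07, 0.41 and 0.37, and with samples 2 and 4 alone 0.06, 0.07 and 0.01. Of 243 member differences recomputed in each comparison, 18, 7 and 12 changed sign, and none had been called. Many of the 243 could not change. The difference stays the same when a library of the third group is left out or the filter is changed. It also stays the same with only the compared groups or with terms for sample number. The 243 therefore overstate how far the signs were tried. Same-numbered libraries had deviations correlated by -0.07 to 0.34 (median 0.09), with 5 of 12 over 0.1. Differently numbered ones were correlated by -0.29 to 0.18 (median -0.05), with 4 of 36 over 0.1. In 13 of 24 comparisons the best match was the own number, 1 of the 4 libraries of the other group. These comparisons count each pair from both sides. Deviations also sum to 0 within a group, so correlations with the same and with other numbers are not independent. The count is a hint of something shared at most. The labels do not say what equal numbers share, so pairing by number was not taken as shown. With a replicate block 0 members passed, and over all genes 1, 0 and 1 did, against 2, 1 and 1 without it. The count over all genes ranged over 1 to 12, 0 to 16 and 0 to 7, highest with samples 2 and 4 alone. The 95% intervals of the members were ± 0.27 to ± 1.13 on the log2 scale, and a call after adjustment over 7570 genes needs more than these widths.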
